A study of Mus musculus with 6 samples.

Results

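Chemokines and their receptors were examined in RNA from the apical dental mesenchyme of mouse mandibular first molars. The genes were chosen by name alone, as the rows whose symbol is Ccl, Cxcl, Ccr or Cxcr with a number and at most 1 further letter, or is Cx3cl1 or Cx3cr1. This gave 56 of the 25899 rows of the deposited table, 38 ligands and 18 receptors, all with values in each of 6 libraries. The rule takes in the atypical receptor Cxcr7, now named Ackr3, and leaves out chemokines with other kinds of symbol such as Pf4.

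The mutant group was labelled Gli1-CreER;Bmpr1afl/fl and the control group Bmpr1afl/fl, with 3 libraries each. Both groups carried loxP-flanked alleles of Bmpr1a, which encodes a bone morphogenetic protein receptor, on a mixed C57Bl6/129S6/SvEvTac background at postnatal day 7.5. Gli1-CreER drives a tamoxifen-dependent recombinase in Gli1-expressing cells. Which cells of the dissected tissue lost or kept the receptor was not measured. The labels give no tamoxifen schedule and do not say whether 1 library is 1 animal. Control 3 and mutant 3 were born in litter 2, and the remaining 4 libraries came from litter 1. Where libraries do not stand for separate animals, p-values measure only the spread between them.

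Levels are given as RPM, read counts scaled to library size without regard to gene length. Levels of different genes are compared as RPKM, that is RPM per kilobase of annotated exon. Libraries held 15916045 to 20609420 reads on genes, and 1 read was worth 0.0329 to 0.0419 RPM. RPM rests on a denominator inferred from the deposited values, which was larger than the reads on genes. Bmpr1a was at 121, 139 and 150 RPM in the controls and 108, 120 and 111 RPM in mutants, without overlap. The log2 change was -0.27 (SE 0.14, limma unadjusted p = 0.091), and 1.67% of the 14444 tested genes were lower in mutants without overlap. Enamel epithelium markers, 13 genes with Amelx among them, summed to 2352 to 39421 RPM in the controls and 5432 to 49850 RPM in mutants, so the dissected mesenchyme held unequal amounts of epithelial RNA. All 12 markers listed for the dental mesenchyme, Msx1, Pax9 and Barx1 as well as Cxcl12 and Cxcl14 themselves, averaged at least 1 RPM. In tissue samples fewer cells of a type and less RNA per cell cannot be told apart.

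Chemokines are small secreted proteins that direct cell migration by forming gradients on glycosaminoglycans and by binding receptors with a heptahelical fold that signal through inhibitory G proteins. The families are named for the spacing of their first cysteines: adjacent in CC ligands, separated by a single residue in CXC ligands and by 3 in CX3C. Homeostatic members such as Cxcl12 are made steadily by stromal cells and hold progenitor and immune cells in place. Inflammatory members such as Cxcl1, Ccl2 and Cxcl10 are induced by cytokines and recruit neutrophils, monocytes or lymphocytes. In dental pulp, Cxcl12 is known as a product of stromal and perivascular cells.

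Of the 56 members, 40 had no read or averaged below 1 RPM. No read fell on 9 members in any library, namely the ligands Ccl1, Ccl20, Ccl26, Cxcl9 and Cxcl17 and the receptors Ccr4, Ccr6, Ccr8 and Cxcr1. A count of 0 allows a level of up to 0.0987 to 0.126 RPM, the worth of 3 reads, and these limits cover counting error only. A further 11 members never exceeded 3 reads in a library. Another 20 exceeded 3 reads somewhere but averaged below 1 RPM, with means of up to 0.874 RPM. The remaining 16 members, 10 ligands and 6 receptors, averaged at least 1 RPM and were tested between genotypes.

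**Figure D1:**
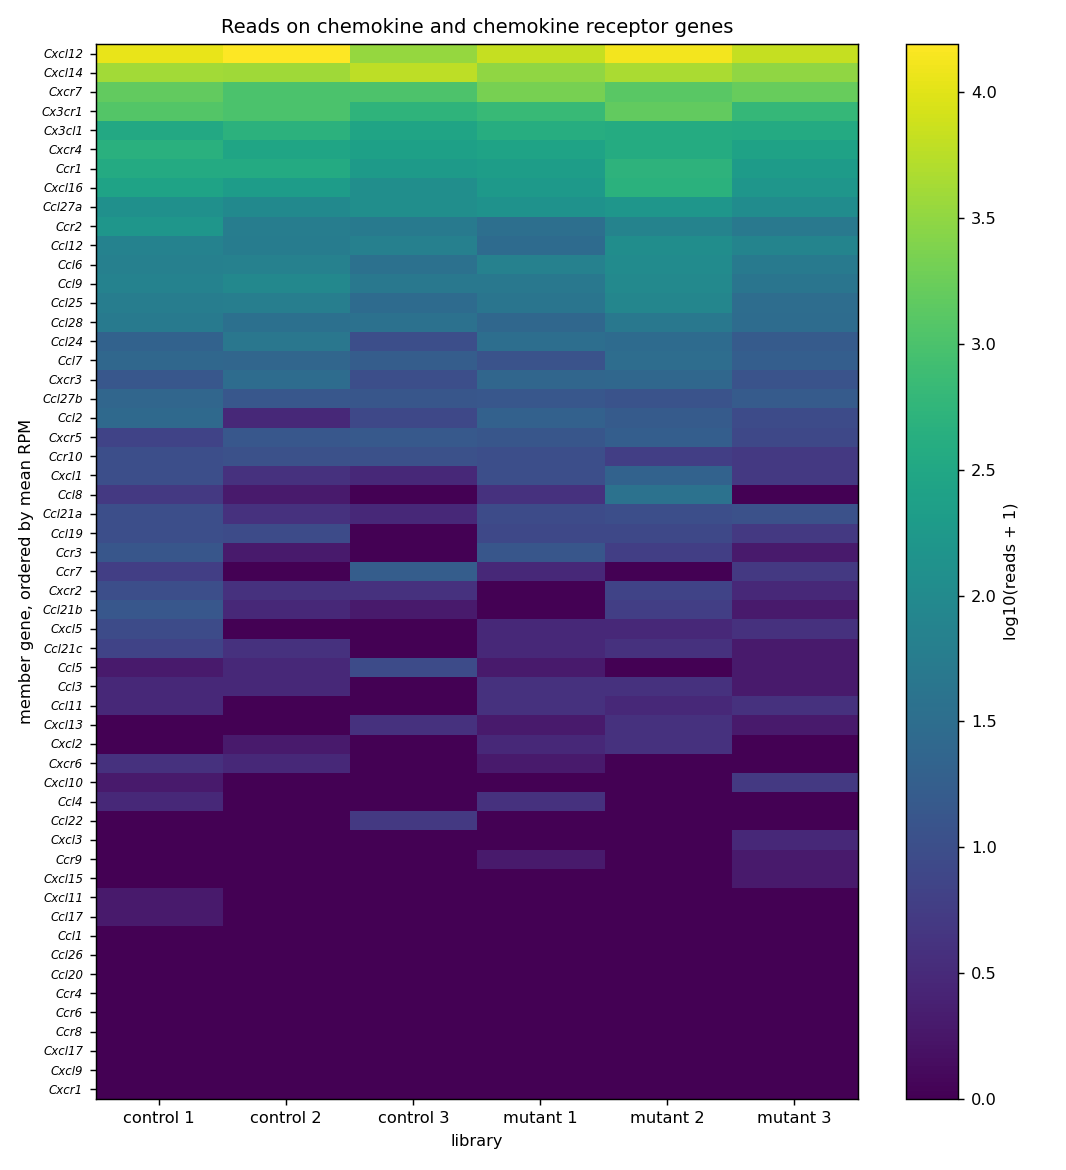
Reads on 55 of the members (rows, in order of mean RPM for display, which does not rank genes per length) in each library (columns), on a log10(reads + 1) colour scale. Cxcl12 and Cxcl14 each hold at least 3126 reads in every library, and the lowest 9 rows hold no read.

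Per kilobase, 2 ligands made up most of the chemokine ligand signal. Cxcl14 averaged 79.7 RPKM and took 43.2% to 77.5% of the summed RPKM of 37 ligands, depending on the library. Cxcl12 averaged 46.1 RPKM and took 11.2% to 44.0%. The next highest means were those of Ccl12 at 4.50 RPKM, Cx3cl1 at 3.82 RPKM and Cxcl16 at 3.04 RPKM. Among the 18 receptors, Cxcr7 averaged 17.1 RPKM and took 36.0% to 63.4% of the sum. It was followed by Cx3cr1 at 7.14 RPKM, Cxcr4 at 6.14 RPKM and Ccr1 at 3.83 RPKM. These shares rest on the exon lengths of the GENCODE M21 annotation, which may differ from the gene models the authors counted on.

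Many members lie in tandem clusters on GRCm38. The run on chr11:82035571-82305690 holds Ccl2, Ccl7, Ccl11, Ccl12, Ccl8 and Ccl1, the monocyte chemoattractants and eotaxin, and only Ccl12 of the 6 averaged 1 RPM. The next run on that chromosome, 83525778 to 83664683, holds Ccl5, Ccl9, Ccl6, Ccl3 and Ccl4, of which Ccl9 and Ccl6 averaged at least 1 RPM. The inflammatory CXC run on chr5:90759360-90905938 (Cxcl5, Cxcl3, Cxcl15, Cxcl1 and Cxcl2) and the interferon-induced run on chr5:92321347-92365485 (Cxcl9, Cxcl10 and Cxcl11) had no member at 1 RPM. A receptor run on chromosome 9 includes Ccr9, Cxcr6, Ccr1, Ccr3 and Ccr2, of which Ccr1 and Ccr2 averaged at least 1 RPM. Cxcl12, on chromosome 6 from 117168535 to 117181367, and Cxcl14, on chromosome 13 from 56288643 to 56296551, lie outside these clusters.

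Cxcl12 (stromal cell-derived factor 1) retains progenitor cells through the signalling receptor Cxcr4 and is cleared by the scavenging receptor Cxcr7. It was at 376, 545 and 118 RPM in controls 1 to 3 and at 233, 433 and 277 RPM in mutants 1 to 3. The mutants lay inside the range of the controls, whose highest and lowest libraries came from different litters. The group means were 346 ± 215 and 314 ± 105 RPM (SD, n = 3 each), while the log2(RPM + 1) change was 0.07 (SE 0.55), so the sign depended on the scale. The limma p was 0.906, with an adjusted p of 1.00 (Benjamini-Hochberg over 14444 genes).

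The Cxcl12 difference ran in opposite directions in the litters. It was -0.51 in litter 1 (2 against 2) and 1.22 in litter 2 (1 against 1). The litter-by-genotype term in limma, added with earlier results known, was 1.73 (unadjusted p = 0.0285, adjusted p = 0.90 over all tested genes). Litter 2 has 1 library per genotype, so the spread behind this p comes from litter 1 alone and the litter 2 libraries are assumed to vary likewise. Unadjusted, 5.06% of all tested genes had a litter term under 0.05, and Cxcl12 was the only one of the 16 tested members that did. Leaving out control 3 turned the change to -0.57, and leaving out mutant 2 turned it to -0.19.

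Tissue markers differed between libraries too. The 3 libraries with the most enamel epithelium RNA (control 3, mutant 1 and mutant 3, 20797 to 49850 RPM) had the lowest Cxcl12, 118 to 277 RPM. The other 3, at 2352 to 5432 RPM of enamel markers, had 376 to 545 RPM. The pericyte markers (7 of 7 detected) summed to 381 to 1024 RPM in the controls and 650 to 945 RPM in mutants and were also lowest in control 3. The endothelium, macrophage and mast cell sums split the libraries as Cxcl12 did. In control 1, control 2 and mutant 2 they were 498 to 575, 532 to 872 and 110 to 149 RPM. In control 3, mutant 1 and mutant 3 they were 367 to 446, 221 to 412 and 53.1 to 85.1 RPM. Not all lists did so. The dental mesenchyme and osteoblast sums were highest in mutant 1, at 40564 and 2756 RPM, where Cxcl12 was the second lowest. Control 3 stood apart in erythroid markers, which summed to 2524 RPM there and to between 230 and 774 RPM elsewhere. The part of tissue makeup in the Cxcl12 differences was not tested.

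Cxcr4, the signalling receptor for Cxcl12, was at 15.0, 10.3 and 8.33 RPM in the controls and 9.52, 12.6 and 10.7 RPM in mutants. All mutants lay within the control range, and the change was -0.01 (SE 0.24, limma unadjusted p = 0.982). Its sign differed between litters, at -0.17 and 0.33, and turned to 0.01 under median-of-ratios scaling and to between 0.004 and 0.21 without control 1, mutant 1 or mutant 3.

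Cxcr7 binds Cxcl12 and removes it from the extracellular space without classical G protein signalling. It was at 50.7, 34.8 and 37.0 RPM in the controls and 77.1, 44.4 and 70.5 RPM in mutants. Mutants 1 and 3 lay above every control, while mutant 2 lay below control 1. The means were 40.8 ± 8.61 and 64.0 ± 17.3 RPM (SD, n = 3 each), a log2 change of 0.62 (SE 0.24).

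Cxcr7 did not pass the test across all genes. Its limma p was 0.0386 unadjusted and 1.00 adjusted (Benjamini-Hochberg). The direction was the same in litter 1 (0.47) and litter 2 (0.91). The unadjusted p rose to 0.102 without control 2, 0.0906 without control 3, 0.132 without mutant 1 and 0.107 without mutant 3. It fell to 0.00537 without mutant 2 and was 0.0526 under median-of-ratios scaling. The change stayed positive in 14 of 14 alternatives, from 0.47 to 0.86. The filters and the litter and replicate blocks cannot move the estimate, so they say nothing about its sign.

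**Figure D2:**
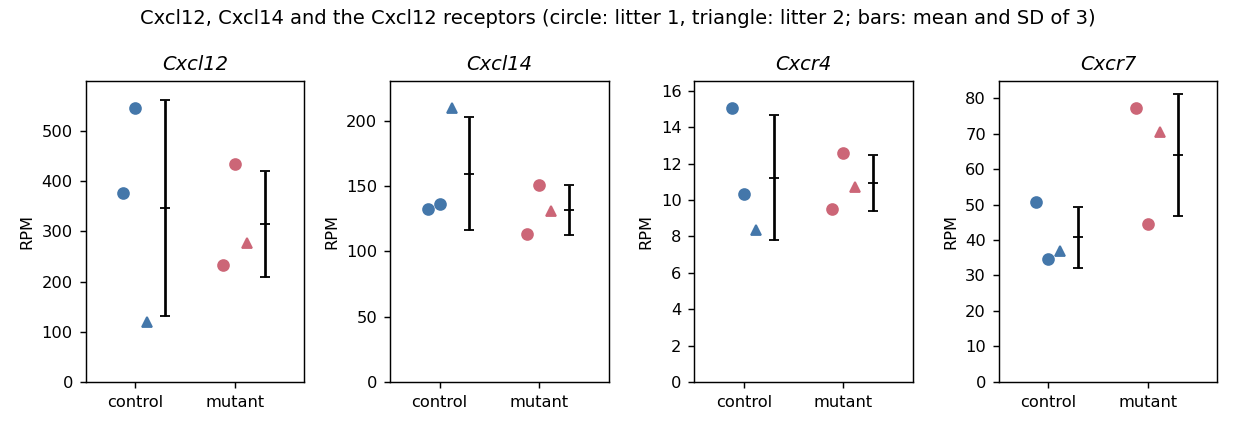
RPM of Cxcl12, Cxcl14, Cxcr4 and Cxcr7 in each library (blue controls, red mutants; circles litter 1, triangles litter 2), with mean and SD of each group of 3. Control 3 is the lowest Cxcl12 library and the highest Cxcl14 library, and mutants 1 and 3 exceed all controls for Cxcr7.

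The balance of the receptors differed between libraries as well. Per kilobase, Cxcr7 exceeded Cxcr4 by 1.98, 1.98 and 2.61 times in controls and by 4.77, 2.08 and 3.87 times in mutants. Mutant 2 fell within the control range, so the groups overlapped. Cxcl12 exceeded Cxcr4 by 3.58 to 13.3 times over the 6 libraries.

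The 250 bases before the RefSeq start (GRCm38.p6) are shown for Cxcl12 and its receptors, on which the preceding results turn, and for Ccr1 as a receptor of myeloid cells. Capitals mark matches on either strand to the GC box GGGCGG, the TATA box TATAAA, the GC-rich element GGCGCC, known as a target of BMP-activated Smads, and GAGGAA, which holds the core of ETS factor sites. Matches may overlap. The 4 motifs and 4 windows were chosen after matches to 8 motifs had been seen; the others, 2 further ETS sequences, an E-box and an NF-kB site, were not carried further. The windows are chr6:117168285-117168534 (plus strand) for Cxcl12, chr1:128592300-128592549 (minus strand) for Cxcr4, chr1:90203730-90203979 (plus strand) for Cxcr7 and chr9:123968693-123968942 (minus strand) for Ccr1.
Cxcl12: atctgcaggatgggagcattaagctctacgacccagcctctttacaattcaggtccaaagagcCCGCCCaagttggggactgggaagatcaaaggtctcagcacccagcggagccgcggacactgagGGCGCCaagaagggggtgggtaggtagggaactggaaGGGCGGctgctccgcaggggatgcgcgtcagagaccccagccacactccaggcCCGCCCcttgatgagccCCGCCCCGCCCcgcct
Cxcr4: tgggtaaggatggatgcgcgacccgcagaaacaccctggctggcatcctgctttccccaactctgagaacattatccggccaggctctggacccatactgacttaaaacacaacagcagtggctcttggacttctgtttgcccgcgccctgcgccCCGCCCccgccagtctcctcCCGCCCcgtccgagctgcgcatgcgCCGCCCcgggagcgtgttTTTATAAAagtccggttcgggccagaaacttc
Cxcr7: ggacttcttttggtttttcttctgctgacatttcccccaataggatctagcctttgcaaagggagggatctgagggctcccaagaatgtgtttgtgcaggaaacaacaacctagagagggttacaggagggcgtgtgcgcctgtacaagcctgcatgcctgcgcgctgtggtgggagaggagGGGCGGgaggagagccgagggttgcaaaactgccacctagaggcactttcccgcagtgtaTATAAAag
Ccr1: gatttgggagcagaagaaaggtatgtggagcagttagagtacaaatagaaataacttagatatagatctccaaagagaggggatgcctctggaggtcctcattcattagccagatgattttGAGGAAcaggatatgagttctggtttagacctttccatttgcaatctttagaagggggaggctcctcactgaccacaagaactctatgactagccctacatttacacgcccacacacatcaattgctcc

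The Cxcl12 window held 5 matches to the GC box and 1 to GGCGCC, with 14 CG dinucleotides. That of Cxcr4 held 3 GC boxes, 2 overlapping TATA matches and 19 CG dinucleotides. That of Cxcr7 held 1 of each box and 7 CG dinucleotides, and that of Ccr1 held 1 GAGGAA and 1 CG dinucleotide. Over the 32851 windows of the RefSeq table the median was 6 CG dinucleotides. There, 32.7% held GGGCGG, 12.4% TATAAA, 9.59% GGCGCC and 23.2% GAGGAA. At least 5 GC boxes were found in 1.93% of windows. Windows were found for 40 of the 56 members. A match is a description of letters, not of a bound site.

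Cxcl14, a CXC ligand without a settled signalling receptor that is known from epithelium and stroma, was the steadier of the abundant ligands. It was at 132, 137 and 210 RPM in the controls and 113, 151 and 131 RPM in mutants. Control 3 stood above the rest and the other 5 libraries overlapped. The change was -0.25 (SE 0.22, limma unadjusted p = 0.283, adjusted p = 1.00), and without control 3 it was -0.04. Within litters it was -0.04 and -0.67. In control 3 the Cxcl12 to Cxcl14 ratio per kilobase was 0.144, against 0.525 to 1.02 elsewhere.

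Cx3cl1, or fractalkine, is made as a membrane-bound CX3C ligand that is shed by proteases, and its receptor Cx3cr1 marks monocytes and resident macrophages. Cx3cl1 was at 11.3, 17.3 and 9.78 RPM in the controls and 14.7, 12.5 and 15.3 RPM in mutants, a change of 0.17 (SE 0.23, limma unadjusted p = 0.482). Cx3cr1 was at 38.5, 35.0 and 18.6 RPM in the controls and 23.8, 51.1 and 26.0 RPM in mutants, a change of 0.11 (SE 0.37, limma unadjusted p = 0.777). Both pairs of groups overlapped. Both changes were slightly below 0 in litter 1 (-0.04 and -0.07) and above it in litter 2 (0.60 and 0.46). Leaving out control 3 or mutant 2 turned the Cx3cr1 change to -0.21 or -0.23. The Cx3cl1 change was 0.01 without control 3 and 0.39 without control 2.

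Ccr1 is a receptor for several CC ligands on monocytes, macrophages and osteoclast precursors. It was at 12.2, 12.9 and 6.85 RPM in the controls and 7.71, 17.0 and 8.38 RPM in mutants. The groups overlapped and the change was 0.01 (SE 0.35, limma unadjusted p = 0.976). It was -0.11 in litter 1 and 0.26 in litter 2, and turned to -0.25 without control 3 and -0.32 without mutant 2. Ccr2, the receptor that recruits inflammatory monocytes, was at 5.30, 2.03 and 1.77 RPM in the controls and 1.17, 2.495 and 2.05 RPM in mutants. Control 1 alone stood apart: the Ccr2 change of -0.40 (SE 0.36, limma unadjusted p = 0.310) was -0.02 without it.

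Cxcl16, made by macrophages and stromal cells both as a secreted ligand and as a membrane scavenger receptor, was at 8.89, 7.20 and 4.20 RPM in the controls and 6.47, 15.9 and 6.54 RPM in mutants. Its change was 0.39 (SE 0.39, limma unadjusted p = 0.346), and without mutant 2, the highest library, it was 0.000271. Its receptor Cxcr6 never exceeded 3 reads. The exons of Cxcl16 overlap those of Zmynd15 on the opposite strand, and the deposited table is not stated to use strand. Zmynd15 was at 1.55 to 2.76 RPM in the controls and 2.03 to 4.82 RPM in mutants and was also highest in mutant 2.

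Macrophage markers varied alongside several of these genes. The 13 macrophage markers in the table, all of which averaged at least 1 RPM (Csf1r, Mrc1, C1qa and others), summed to 532, 685 and 221 RPM in the controls and 412, 872 and 402 RPM in mutants, a 3.94-fold span. Ccr1 and Cx3cr1 were both highest in mutant 2 and lowest in control 3, as the marker sum was.

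Levels were then divided by this sum; no other marker list was used in this way, and it was chosen after the sums of all lists had been seen. For Cx3cr1 the span between the highest and lowest library went from 2.75-fold to 1.64-fold, with 5.11 to 8.40 RPM per 100 RPM of macrophage markers. For Ccr1 it went from 2.48-fold to 1.65-fold, and for Cxcl16 from 3.78-fold to 1.81-fold. Ccl6, a CC ligand of mouse myeloid cells, went from 2.83-fold to 1.69-fold.

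For Cxcl12, known as a stromal product, the span went from 4.599-fold to 1.599-fold. The span was also smaller for Ccr2 (4.52-fold to 3.50-fold) and Ccl25 (2.83-fold to 1.46-fold), which makes 7 of 16 members. Among the 14416 tested genes with reads in every library, 10.9% had a smaller span. Their median span before division was 1.58-fold, while the marker sum spanned 3.94-fold. Dividing by it must widen the span of genes that vary little, so both shares depend on the spans before division. The span grew for the other 9 members, among them the myeloid ligands Ccl9 (1.94-fold to 2.09-fold) and Ccl12 (3.71-fold to 4.30-fold). It also grew for Cxcl14 (1.85-fold to 5.47-fold) and Cxcr7 (2.22-fold to 3.69-fold). For Ccl9 and Cxcl14 a wider span was certain before division, given the 3.94-fold span of the sum. Whether macrophage content sets these levels was not tested.

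**Figure D3:**
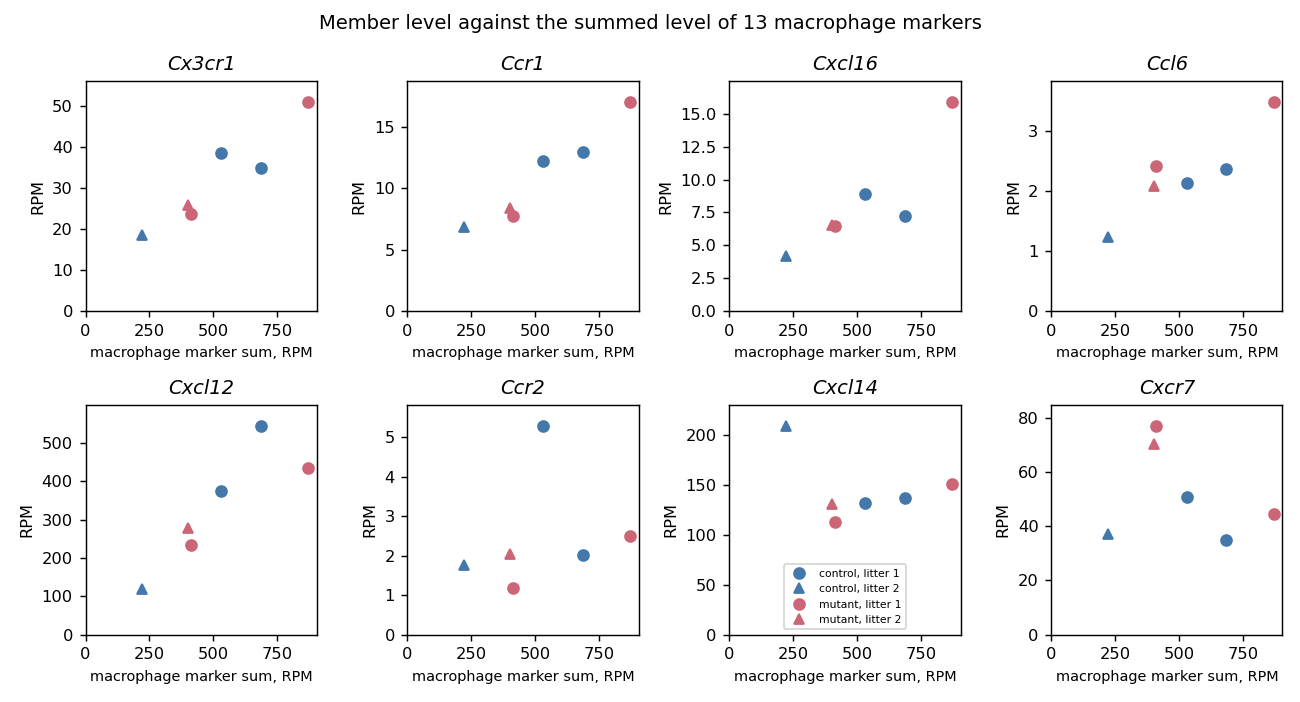
RPM of 8 members (vertical axes) against the summed RPM of 13 macrophage markers (horizontal axes) in 6 libraries. Cx3cr1, Ccr1, Cxcl16, Ccl6 and Cxcl12 are lowest in control 3, where the sum is 221 RPM, whereas Cxcl14 is highest there and Cxcr7 is highest in mutant 1.

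The tested CC ligands were low and overlapped between genotypes, except for Ccl27a. Ccl27a, a ligand of Ccr10 known from skin, was at 4.11, 3.36 and 4.13 RPM in the controls and 4.87, 5.29 and 4.48 RPM in mutants. All 3 mutants lay above all 3 controls, a state shared by 0.976% of tested genes in that direction and 1.67% in the other, 2.64% in all, but the change of 0.27 (SE 0.18) did not pass limma (unadjusted p = 0.164, adjusted p = 1.00). Its exons overlap those of Il11ra1 on the opposite strand, which was at 140 to 212 RPM in the controls and 141 to 222 RPM in mutants. It also has a close copy, Ccl27b, at 0.366 to 0.757 RPM, so reads may be shared. Ccr10 had 9, 10 and 10 reads in controls and 9, 5 and 4 in mutants.

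Ccl12, a Ccr2 ligand of mice, was at 2.34, 1.96 and 2.30 RPM in the controls and 0.995, 3.69 and 3.23 RPM in mutants. The controls lay close together and the mutants on both sides of them, giving a change of 0.09 (SE 0.34). Per kilobase, Ccl12 averaged 4.50 RPKM, against 0.887 RPKM for Ccl7 and 0.550 RPKM for Ccl2, which are also Ccr2 ligands. Ccl6 and Ccl9, ligands of Ccr1, had differences of 0.33 (SE 0.25) and -0.11 (SE 0.27), with overlapping groups and limma unadjusted p of 0.221 and 0.702. Leaving out control 2 or mutant 1 turned the Ccl9 change to 0.06 or 0.005. The Ccl6 change was 0.15 without control 3 and 0.18 without mutant 2.

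Ccl25, a ligand known from thymus and gut, was at 0.989 to 2.10 RPM in the controls and 1.30 to 2.79 RPM in mutants. Its receptor Ccr9 had at most 1 read in a library. Ccl25 exons overlap those of Elavl1 on the opposite strand, which was at 44.9 to 49.7 RPM in the controls and 39.5 to 52.9 RPM in mutants. Ccl28, a mucosal epithelial ligand, was at 1.19 to 1.74 RPM in the controls and 0.853 to 1.53 RPM in mutants.

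Below 1 RPM, ligands and receptors of recruited leukocytes had few reads. The neutrophil attractants Cxcl1, Cxcl2, Cxcl3 and Cxcl5 had at most 20 reads in a library, and their receptor Cxcr2 had at most 9. Ccl24, an eosinophil attractant, had 9 to 45 reads, and its receptor Ccr3 had 0 to 12. The neutrophil markers S100a8, S100a9 and 8 others summed to 3.81 to 7.08 RPM in the controls and 5.01 to 14.9 RPM in mutants. Among lymphocyte members, Cxcr3 and Cxcr5 ranged from 0.318 to 1.01 RPM and from 0.197 to 0.566 RPM, while Ccr7, the homing receptor of dendritic cells and naive T cells, had 0 to 16 reads. Cxcr5 exons overlap those of Bcl9l on the opposite strand, which was at 49.2 to 64.4 RPM in the controls and 50.3 to 63.2 RPM in mutants. The 10 T and NK cell markers in the table summed to 2.44 to 8.08 RPM in the controls and 3.86 to 11.4 RPM in mutants. Of these, 2 averaged at least 1 RPM and 7, with Cd3e among them, had at most 3 reads in every library.

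Ccl8, a monocyte chemoattractant, had 37 reads in mutant 2 and 0 to 4 in the other 5 libraries. Ccl2 had 26, 2 and 7 reads in the controls and 19, 15 and 8 in mutants, with overlapping groups. Ccl21a, Ccl21b and Ccl21c, near-identical copies of the Ccr7 ligand, had at most 13 reads, and reads cannot be assigned securely among them. Ccl11, or eotaxin, had 2, 0 and 0 reads in controls and 3, 2 and 3 in mutants, so its values in RPM did not overlap, but all are at or under the detection limit. Members below 1 RPM other than the partners of abundant members, and Ccl25 and Ccl28, were picked for description after their values were seen.

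**Figure D4:**
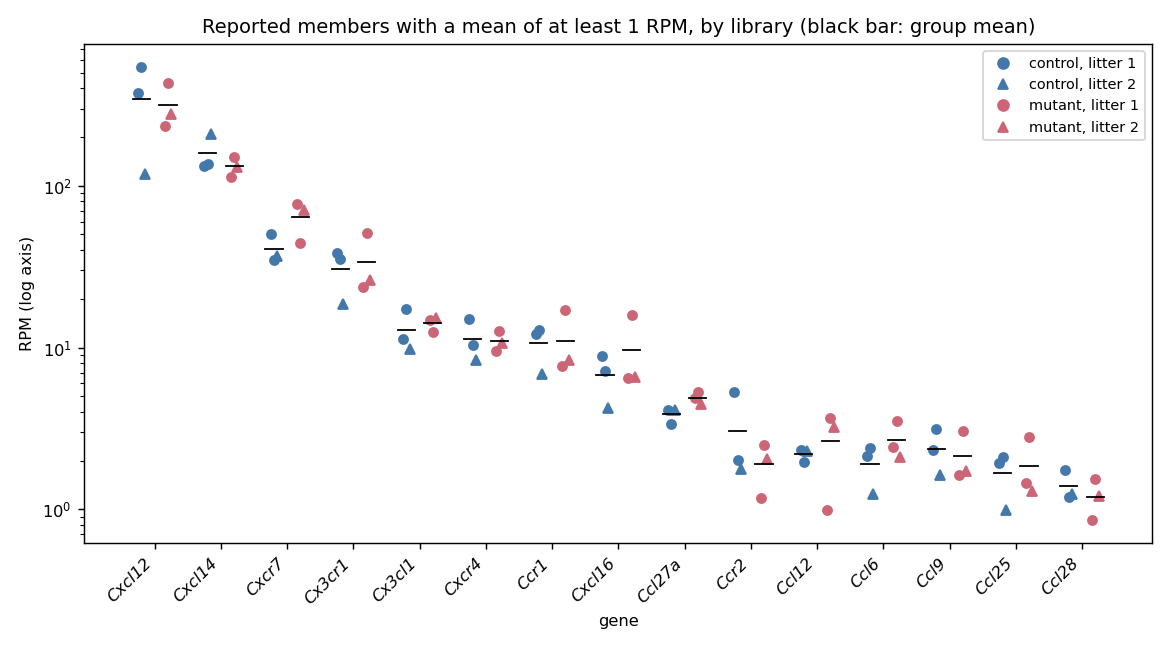
RPM on a log axis for 15 of the members that averaged at least 1 RPM, in each control (blue) and mutant (red) library, with bars at the group means. Only for Ccl27a do the mutant points lie wholly apart from the control points.

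Across the 16 tested members, the genotype comparison called none. At an adjusted p under 0.05 (limma, Benjamini-Hochberg) there were 0 members, as there were 0% of the 14444 genes tested. At an unadjusted p under 0.05 there was 1 member, Cxcr7, against 1.05% of all tested genes, and against 0.36% counting only those higher in mutants. In limma voom on the recovered reads the count was also 1. Mutants were higher for 11 members and lower for 5, with a median change of 0.09, against a median of -0.01 over all genes tested. That median turned to -0.08 without control 3, -0.14 without mutant 2 and -0.04 in litter 1 alone. Marker lists leaned as well. Mutants were higher for 13 of 13 macrophage and 12 of 13 enamel epithelium markers, and lower for 8 of 8 osteoblast markers. A link to the lean of the members was not tested. Member changes ran from -0.40 for Ccr2 to 0.62 for Cxcr7. In 8 of the 16 members the change had opposite signs in litters 1 and 2. The share of all tested genes with opposite signs was not counted, so this is not read as a trait of the members.

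**Figure D5:**
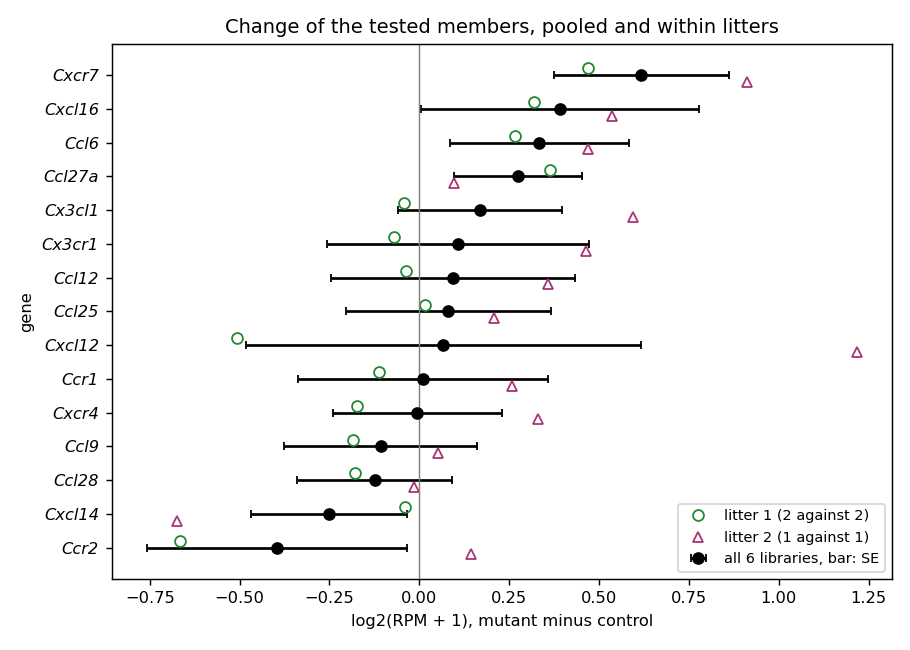
Change in log2(RPM + 1), mutant minus control, of 15 tested members (black points with SE), with the change within litter 1 (green circles) and litter 2 (purple triangles). Cxcr7 lies highest at 0.62 with both litters above 0, and for Cxcl12 the litters lie at -0.51 and 1.22.

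Other genes of the pathway were taken from fixed lists of chemokine-like ligands and atypical receptors, receptor signalling proteins and inflammatory inducers. Of 96 such genes in the table, 75 were tested and 0 passed adjustment by limma, with 35 higher, 40 lower and a median change of -0.01. By list, values were lower in mutants for 34 of the 42 receptor signalling genes (median -0.06) and higher for 19 of the 21 inducers (median 0.09), where 45.6% of all tested genes were higher. This difference between lists was not tested, and there were 0 genes of either list at an unadjusted p under 0.05. At an unadjusted p under 0.05 there was 1 gene, Cd74, the invariant chain of MHC class II and a receptor for the cytokine Mif. Cd74 was at 22.7, 11.0 and 11.4 RPM in the controls and 7.32, 9.05 and 7.92 RPM in mutants. Its mutants lay below all controls without overlap, as for 1.67% of all tested genes. Its change was -0.75 (SE 0.28, limma unadjusted p = 0.0334, adjusted p = 1.00), against 0.692% of all genes that were lower at that threshold. The unadjusted limma p rose to 0.0794 without control 1, where the change was -0.43, to 0.0987 without mutant 1 and to 0.0718 without mutant 3. Mif itself was at 28.8 to 38.2 RPM in the controls and 34.4 to 42.3 RPM in mutants.

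Il6 and Ifng, cytokines that induce inflammatory chemokines, had no read in any library, and Tnf did not exceed 0.263 RPM. Il1b was at 0.212 to 0.559 RPM in the controls and 0.335 to 2.60 RPM in mutants, where mutant 2 was the highest. The atypical receptors Ccrl1, now Ackr4, and Darc, now Ackr1, averaged at least 1 RPM and overlapped between genotypes, with changes of 0.40 (SE 0.25) and 0.41 (SE 0.23). Of the pathway genes named, all but Cd74 were picked after their values were seen.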

How the data were processed

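RNA of 6 molar samples was prepared as poly(A) libraries and, per the labels' protocols, read on an Illumina NextSeq 500. TopHat2 and mm10 are named in the submitters' processing notes; the counting program and annotation are not given in the sources used here. The authors deposited 1 table of log2 values, titled as RPKM. Raised to powers of 2, values up to 1000 reads were whole multiples (within 0.02) of 1 step per library in 100% of cases, the column minimum being taken as 0.9 of 1 read. The step was the same for all genes, so values were read as RPM, an inferred denominator. The members and lists were chosen with earlier results of these data known.

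The 14444 genes averaging 1 RPM or more were fitted on log2(RPM + 1), mutant minus control, with limma 3.58.1 in R 4.3.3 (trend, no covariate, two-sided, Benjamini-Hochberg over all tested genes); the fit was tested on simulated data. This scale understates changes of low genes. A count model was limited to limma voom because the deposited unit is log2. Named members were Cxcl12, Cxcl14, the 12 with the highest mean RPM, any tested member with an unadjusted p under 0.05 or groups apart, and their fixed partners; other members were described after their values were seen. Positions and exon lengths came from GENCODE M21 (GRCm38), which placed 55 of 56 members. The values of 1 tested member, counted in the totals, are not reported here. A litter-by-genotype term was added later. Promoter windows came from RefSeq on GRCm38.p6. Alternatives were a pseudocount of 0.1, a minimum of 5 RPM or none, median-of-ratios scaling, litter or replicate blocks, litter 1 alone, voom and leaving out each library.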

Additional observations from a re-analysis of the deposited data

How the results depend on the processing

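No member passed adjustment in any of the 14 alternatives, and no listed pathway gene did. The number of members at an unadjusted p under 0.05, 1 as reported, was 0 with median-of-ratios scaling and 0 in litter 1 alone, and ran from 0 to 1 over the fits that left out 1 library. Over all genes, 0 passed adjustment (152 at an unadjusted p under 0.05; limma), and 0 to 1 did when 1 library was left out, the 1 (Spp1) arising without control 1. The 152 became 344 with no filter, 292 with a litter block, 319 in litter 1 alone and 524 with the replicate block, and 68 (without mutant 1) to 325 (without control 1) over the leave-one-out fits. For the pathway genes the unadjusted count of 1 was 2 with the replicate block, 2 in litter 1 alone and 0 to 7 over the leave-one-out fits, the 7 without mutant 2. The cause was not tested.

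In litter 1 alone the direction reversed for Cxcl12 (-0.51), Cx3cr1 (-0.0705), Cx3cl1 (-0.0438), Ccr1 (-0.11) and Ccl12 (-0.0383), and with median-of-ratios scaling for Cxcr4 (0.00948). Over the leave-one-out fits the changes ran from -0.57 to 0.52 for Cxcl12, -0.23 to 0.31 for Cx3cr1, -0.18 to 0.21 for Cxcr4, -0.32 to 0.20 for Ccr1, -0.14 to 0.48 for Ccl12 and -0.31 to 0.0554 for Ccl9. Ccl12 reversed without mutant 2 or mutant 3. Cxcr7, Cxcl16, Ccl27a and Ccl6 stayed positive and Cxcl14 and Ccr2 negative throughout, although the filters and blocks cannot move these changes.

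Replicate numbers come from the table's column names. Deviations from the group means correlated at -0.03 for pair 1, 0.75 for pair 2 and 0.50 for pair 3. These values do not settle whether the numbers pair the libraries, and the main fit left them unpaired. With the replicate block Cxcr7 had an unadjusted p of 0.00583 and an adjusted p of 0.813 (limma), and 1 member was under an unadjusted 0.05. The 40 members that averaged below 1 RPM were not tested as reported, and 3 reads were worth 0.0987 to 0.126 RPM.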

Other observations

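Values of MHC class II genes of antigen-presenting cells were looked at after those of Cd74 had been seen, and come from no fixed class II list. H2-Aa, the alpha chain of I-A, was at 7.64, 5.74 and 5.08 RPM in the controls and 2.31, 4.23 and 2.18 RPM in mutants. Its partner H2-Ab1 was at 9.77, 6.85 and 6.89 RPM in the controls and 3.45, 4.89 and 3.19 RPM in mutants. For both genes all mutants lay below all controls, as for 1.67% of all tested genes, and the changes were -0.90 (SE 0.26, limma unadjusted p = 0.0106) and -0.87 (SE 0.22, limma unadjusted p = 0.00585), each with an adjusted p of 1.00. H2-Eb1 overlapped, at 4.27 to 7.64 RPM in the controls and 2.27 to 4.42 RPM in mutants (-0.60, SE 0.28). Groups also overlapped for the peptide-loading genes H2-DMa (-0.25, SE 0.22, limma unadjusted p = 0.290) and H2-DMb1 (-0.23, SE 0.18, limma unadjusted p = 0.246). Ciita, the class II transactivator, was at 0 to 0.559 RPM in the controls and 0.142 to 0.433 RPM in mutants and was not tested. The other 6 genes of the dendritic cell marker list, which also holds H2-Aa, H2-Ab1 and H2-Eb1, summed to 6.22, 5.18 and 4.31 RPM in the controls and 4.26, 6.45 and 3.65 RPM in mutants, with overlapping groups. Ccr2, found on monocytes and the dendritic cells derived from them, was highest in control 1, as H2-Aa, H2-Ab1, H2-Eb1 and H2-DMa were, while H2-DMb1 was highest in control 2. The macrophage marker sum, by contrast, was highest in mutant 2.

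Pf4, a CXC chemokine outside the naming rule, was at 31.1, 43.6 and 14.0 RPM in the controls and 25.3, 54.4 and 28.9 RPM in mutants. It was highest in mutant 2 and lowest in control 3, as the macrophage markers were. Ccbp2, the atypical receptor now named Ackr2 that degrades inflammatory CC chemokines, was at 0.132, 1.54 and 2.61 RPM in the controls and 0.419 to 0.665 RPM in mutants, so control 1 lay below the mutants and the other controls above them.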
